A study of Homo sapiens with 36 samples.

Results

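The comparison of day 7 with day 6 after transduction was made in Jurkat, an established line of human T-cell leukaemia, across both guides of a CRISPR activation study. Its members are all libraries that the sample titles place on day 6 or day 7, which are 24 of 36 libraries from 12 of 18 RNA samples. The cells stably carried dCas9-VP64, in which a Cas9 that cannot cut carries the VP64 activation domain, with an mCherry marker. All of them had received a lentiviral pXPR vector and puromycin selection for 3 days. The 4 groups were sgControl on day 6, sgControl on day 7, sgRELA on day 6 and sgRELA on day 7, with 3 RNA samples each from transductions made in triplicate. The sgControl guide is labelled non-targeting, and the sgRELA guide is directed at RELA, the gene of the NF-kB subunit p65. The 2 libraries made from each RNA were added, so that 6 sums of day 7 were compared with 6 sums of day 6, with the guide as a term of the model. The labels name 1 guide of each kind and 1 stable line, and untransduced cells were not analysed here. They do not say whether samples of different days came from the same transduced culture, and each day is 1 harvest, so that day and harvest cannot be told apart.

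Cells adjust protein folding, amino acid supply and division through separate sets of genes. When unfolded proteins gather in the endoplasmic reticulum (ER), the sensors IRE1, PERK and ATF6 raise ER chaperones and the degradation machinery, which is the unfolded protein response. PERK and other kinases that phosphorylate eIF2 alpha favour translation of ATF4, a factor that raises amino acid transporters, synthetic enzymes and several tRNA synthetases. The cytosol has its own chaperones under heat shock factor 1. E2F factors drive the genes of DNA synthesis, and the DREAM and MYBL2 complexes with FOXM1 act on the genes of mitosis.

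RNA was extracted from 300000 cells per sample, and RamDA-seq libraries were made from 100 pg of total RNA, a random-primed method that also covers RNA without poly(A) tails. The 6 sums of day 6 held 18769530 to 22147753 counts and those of day 7 24051818 to 26147414, with no overlap. Genes with at least 1 count numbered 31969 to 32809 on day 6 and 31401 to 32139 on day 7 (exact two-sided permutation p = 0.0108). Mitochondrially encoded genes took 8.33% to 9.87% of counts on day 6 and 7.41% to 7.85% on day 7 (exact two-sided permutation p = 0.00216, the smallest that 6 against 6 allows). These 3 measures moved with the day, and their part in the results was not tested beyond a fit without mitochondrially encoded genes. That fit called 6053 genes, 6043 of them among the 6074 of the main fit. Of 12 T-lineage markers all were tested, and their summed level was 3960 to 4780 CPM (counts relative to the scaled library total) on day 6 and 4800 to 5120 CPM on day 7, with 8 called higher and 2 lower. Summed levels of the B-cell markers were 28.2 to 70.4 CPM on day 6 and 28.1 to 76.9 CPM on day 7, and those of the myeloid markers 0.494 to 4.07 and 0.399 to 3.80 CPM. The fibroblast markers summed to 7.33 to 15.5 CPM on day 6 and 4.43 to 6.83 CPM on day 7, with COL1A2 at 0 and 1 called lower. Of the erythroid markers HBB, HBA1 and HBA2 were at 0 in all 12 samples, as were EPCAM and KRT14 of the epithelial ones.

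Of 25957 genes tested, 3376 were called higher on day 7 (13%) and 2698 lower (10.4%), together 23.4%, at an edgeR quasi-likelihood adjusted p under 0.05. The median log2 fold change over all genes tested was -0.05. Without TMM factors, scaling by library totals alone moved that median to -0.162 and the calls to 2482 higher and 4134 lower, so that the share of calls that were higher went from 55.6% to 37.5%. The TMM factors were 1.02 to 1.07 on day 6 and 0.959 to 0.968 on day 7. Changes of more than 1 log2 unit were called for 559 genes that rose and 721 that fell. For 3404 genes (13.1%) the 6 values of one day lay wholly above the 6 of the other. Day 7 was above for 2212 of them and below for 1192. The first principal component of the 12 samples held 20.4% of the variance and placed day 6 samples between -60.3 and -43.6 and day 7 samples between 48.7 and 54.8.

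**Figure D1:**
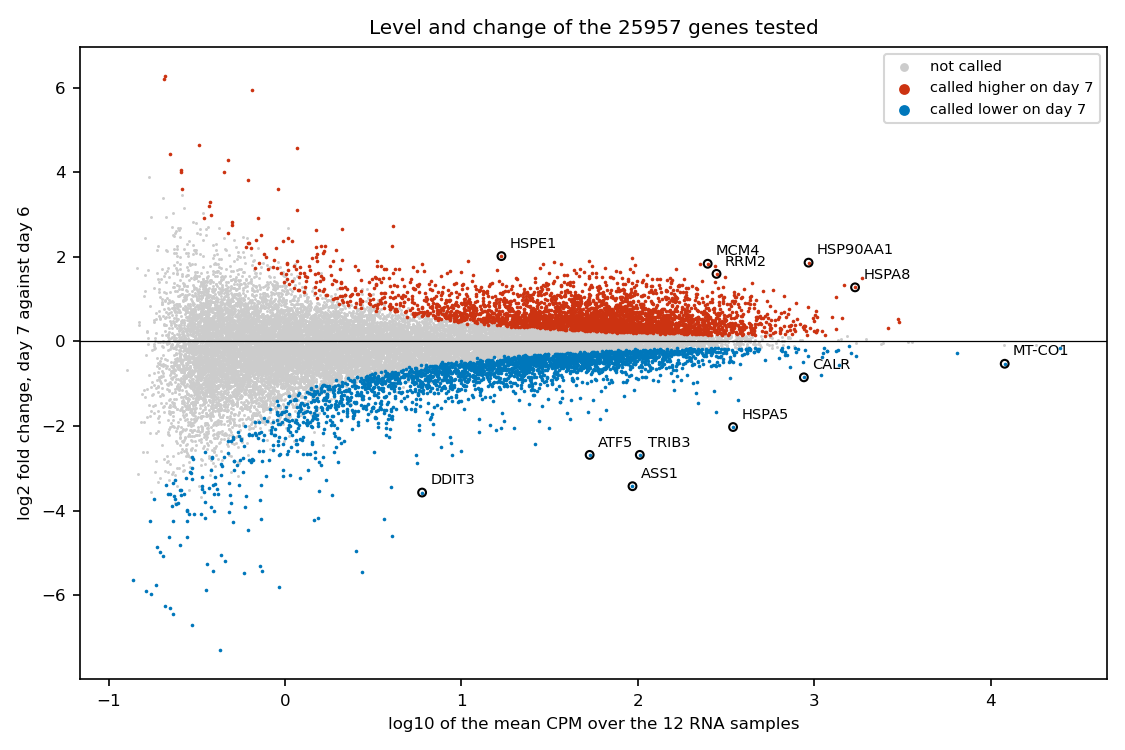
Each point is 1 of the 25957 genes tested, with the log10 of its mean CPM over 12 RNA samples on the x axis and its log2 fold change of day 7 against day 6 on the y axis. Red genes were called higher (3376), blue genes lower (2698), and circles mark named genes such as ASS1 at -3.42 and HSP90AA1 at 1.86.

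To say which pathways moved, 43 lists of genes were compared with these background shares. Most lists are of protein-coding genes, of which 21.6% rose and 14.2% fell. In the fit of 12563 genes with a mean of at least 5 CPM, 3039 were called higher and 2930 lower. Beside these larger shares, lists with moderate counts stand out less. Lists are described by their counts and medians, with no test of the list. Exceptions within a list were named after their values were seen. Genes named for the smallest p or the largest change over all genes had to have no overlap between days. Their separation is therefore no added support. Among the 100 genes with the smallest p that rose, 18 belonged to the list of G2/M and mitosis, 12 to G1/S and DNA replication, 8 to nucleotide synthesis and 6 to cytosolic chaperones, and 35 were in no list. Among the 100 that fell with the smallest p, 20 belonged to the ER chaperones and unfolded protein response, 14 to the ATF4 response and 3 to the tRNA synthetases, and 55 were in no list. Under library totals the medians of the tRNA synthetases, the T-cell receptor genes, the chromatin regulators and the immediate early genes turned from above to below 0, and no other list changed sign. In bulk RNA, fewer cells of a kind and less RNA per cell cannot be told apart.

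**Figure D2:**
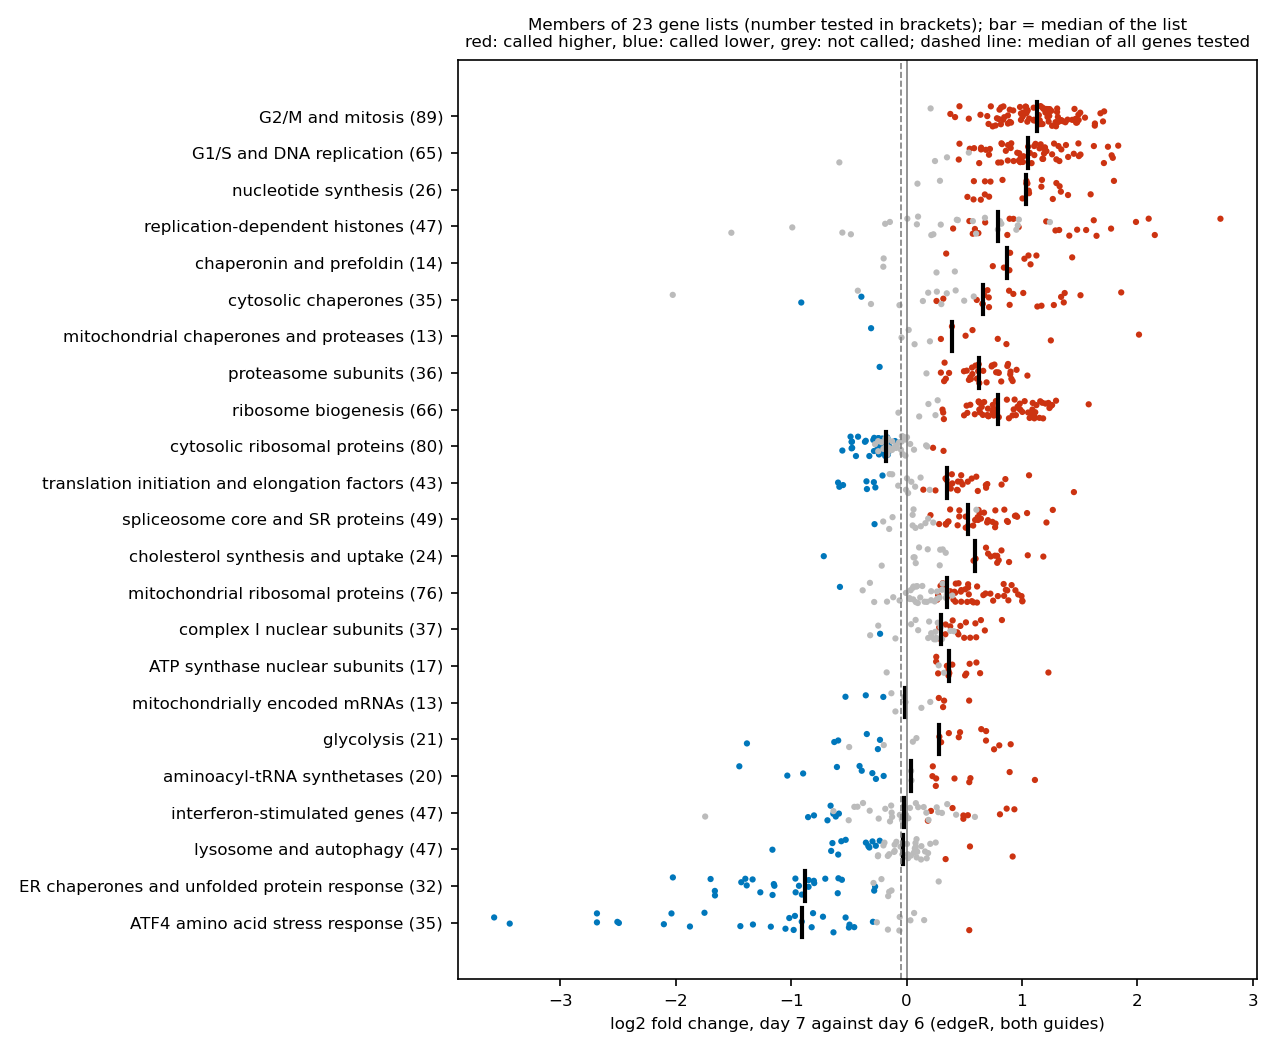
Each row is 1 of 23 gene lists, each point a tested member with its log2 fold change of day 7 against day 6 on the x axis, and the black bar is the median of the list. The members of G2/M and mitosis lie at a median of 1.13 and those of the ER and ATF4 lists at -0.88 and -0.91, beside -0.05 for all genes tested (dashed line).

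ER chaperones and the genes of the unfolded protein response fell together. Of 32 members tested, 26 were called lower and 0 higher. The median log2 fold change was -0.88, and for 25 members every day 7 value lay below every day 6 value. Over all 25957 genes tested this was so for 1192. HSPA5, which encodes BiP, the main Hsp70 of the ER lumen, was at 483 to 605 CPM (median 559) on day 6 and 119 to 158 CPM (median 139) on day 7 (log2 fold change -2.02 ± 0.07, SE, edgeR adjusted p = 6.4e-17). Its 6 samples of day 6 all stood above the 6 of day 7, as the naming rule required. HSP90B1, the ER member of the Hsp90 family, was at 343 to 478 CPM (median 429) on day 6 and 117 to 142 CPM (median 135) on day 7 (log2 fold change -1.66 ± 0.07, SE, edgeR adjusted p = 4.5e-15). HYOU1, an ER nucleotide exchange factor for BiP, was at 488 to 592 CPM (median 519.5) on day 6 and 195 to 229.9 CPM (median 199) on day 7. It fell by 1.39 on the log2 scale (adjusted p = 4.5e-15).

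Members with other roles in the ER moved the same way. CALR, the lectin chaperone calreticulin, was at 1034 to 1241 CPM (median 1118) on day 6 and 600.1 to 651 CPM (median 622) on day 7 (log2 fold change -0.85 ± 0.04, SE, edgeR adjusted p = 2.6e-13). PDIA4, a protein disulphide isomerase, was at 187 to 236 CPM (median 227) on day 6 and 90.5 to 106 CPM (median 101) on day 7 (log2 fold change -1.15 ± 0.07, SE, edgeR adjusted p = 1.8e-12). XBP1 encodes the factor made active when IRE1 splices its mRNA, and its total level was at 74.3 to 89.9 CPM (median 79.7) on day 6 and 28.6 to 33.0 CPM (median 30.4) on day 7 (log2 fold change -1.40 ± 0.08, SE, edgeR adjusted p = 1.8e-12). The count does not separate spliced from unspliced XBP1. On the degradation side, SEL1L, the adaptor of the HRD1 ubiquitin ligase, was at 324 to 444 CPM (median 368) on day 6 and 152 to 178 CPM (median 169) on day 7 (log2 fold change -1.16 ± 0.06, SE, edgeR adjusted p = 3.2e-13), and EDEM1, which directs misfolded glycoproteins to it, changed by -0.80 ± 0.05 (SE, adjusted p = 1.2e-12). The 6 members that did not pass the test were ATF6 (-0.16), SELENOK (-0.29), FKBP11 (0.28), SELENOS (-0.22), DERL1 (-0.13) and SEC61B (-0.15).

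The promoters of this list were examined for the ER stress response element, CCAAT followed after 9 bases by CCACG on either strand, in RefSeq windows of GRCh38.p14 from 250 bases before to 50 after the start. It was found in 8 of 30 members with a window (26.7%), beside 0.132% of 12886 tested genes with a window and 0.0769% of all 35116 windows. Motif shares here and below count members whichever way they moved and do not measure the change between days. The lists were written by hand and each motif was chosen for its list, so that a high share is no result of these data. The tested genes include the members. The 8 were HSPA5, HSP90B1, CALR, XBP1, CANX, CRELD2, PDIA6 and ERO1B. The 250 bases before the start are shown for the 2 members with the smallest p, with the element in capitals, for HSPA5 at chr9:125241344-125241593 on the minus strand and for HSP90B1 at chr12:103930160-103930409 on the plus strand.
HSPA5: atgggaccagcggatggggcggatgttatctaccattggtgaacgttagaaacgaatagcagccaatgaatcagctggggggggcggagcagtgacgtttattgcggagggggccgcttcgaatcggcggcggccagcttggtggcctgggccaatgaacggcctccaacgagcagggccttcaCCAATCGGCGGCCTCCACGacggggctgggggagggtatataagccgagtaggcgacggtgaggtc
HSP90B1: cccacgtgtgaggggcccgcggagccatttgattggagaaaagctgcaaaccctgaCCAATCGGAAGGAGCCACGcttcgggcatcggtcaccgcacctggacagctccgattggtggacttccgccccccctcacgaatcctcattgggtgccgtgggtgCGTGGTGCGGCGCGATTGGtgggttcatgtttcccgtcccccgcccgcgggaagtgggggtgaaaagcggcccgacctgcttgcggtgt
In HSPA5 the element starts 66 bases before the start site. HSP90B1 has 1 in each orientation, 194 and 89 bases before the start.

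Genes of the ATF4 response fell as well. Of 35 tested, 27 were called lower and 1 higher, with a median of -0.91. ATF4 itself was at 261 to 294 CPM (median 272) on day 6 and 127 to 156 CPM (median 139) on day 7 (log2 fold change -0.98 ± 0.06, SE, edgeR adjusted p = 2.8e-12). TRIB3, a pseudokinase that ATF4 raises under amino acid shortage, was at 157 to 224 CPM (median 169) on day 6 and 24.5 to 31.9 CPM (median 27.4) on day 7 (log2 fold change -2.68 ± 0.09, SE, edgeR adjusted p = 2.2e-17). ATF5, a related bZIP factor, was at 70.2 to 98.7 CPM (median 96.8) on day 6 and 12.3 to 18.0 CPM (median 13.5) on day 7 (log2 fold change -2.68 ± 0.11, SE, edgeR adjusted p = 2.8e-15). Both were separate between days in all 12 samples, as the naming rule required. DDIT3, the factor CHOP, had the largest change of the genes with a mean of at least 5 CPM and no overlap that fell, at 9.56 to 12.2 CPM (median 11.1) on day 6 and 0.217 to 2.18 CPM (median 0.827) on day 7 (log2 fold change -3.57 ± 0.34, SE, edgeR adjusted p = 1.0e-08). SLC7A11, the cystine carrier of system xc-, was at 39.2 to 60.9 CPM (median 51.8) on day 6 and 8.07 to 16.7 CPM (median 11.7) on day 7 (log2 fold change -2.04 ± 0.13, SE, edgeR adjusted p = 4.3e-12). The secreted factors VEGFA and STC2 changed by -1.88 ± 0.14 and -2.10 ± 0.16 (SE, adjusted p = 9.7e-11 and 1.3e-10). The 1 member that rose was ALDH18A1 (0.54), an enzyme of proline synthesis. PSPH, the last enzyme of serine synthesis, had 0.03 and did not pass the test (adjusted p = 0.91).

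ASS1 had the smallest p of all genes that fell and was in no list. It encodes argininosuccinate synthase, which makes argininosuccinate from citrulline and aspartate on the way to arginine, and lies at chr9:130444929-130501274 on GRCh38 in GENCODE release 29. Its level was 149 to 201 CPM (median 168) on day 6 and 13.3 to 18.8 CPM (median 15.9) on day 7 (log2 fold change -3.42 ± 0.09, SE, edgeR adjusted p = 1.1e-18). The days did not overlap, as the naming rule required. ASS1 has many processed pseudogenes, and how the authors counted reads that match several places is not given in the sources used here.

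The 8-base form of the ATF4 element, TGATGNAA on either strand, was found in 9 of 29 members with a window (31.0%), beside 3.02% of tested genes with a window. They were SLC3A2, JDP2, ASNS, CHAC1, SLC1A5, ATF3, CEBPG, SLC1A4 and SLC7A1. The window of ASNS, asparagine synthetase, is shown at chr7:97872409-97872658 on the minus strand as the textbook case and is 1 of 2 windows of that gene, with the match in capitals 68 bases before the start.
ASNS: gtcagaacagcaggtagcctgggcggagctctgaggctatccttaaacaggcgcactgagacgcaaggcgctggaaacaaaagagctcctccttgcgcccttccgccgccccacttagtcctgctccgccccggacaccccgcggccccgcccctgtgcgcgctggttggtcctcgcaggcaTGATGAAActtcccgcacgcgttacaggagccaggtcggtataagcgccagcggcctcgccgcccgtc
ASNS was at 42.5 to 60.8 CPM (median 53.8) on day 6 and 11.3 to 25.3 CPM (median 20.2) on day 7 (log2 fold change -1.44 ± 0.15, SE, edgeR adjusted p = 2.9e-08).

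The cytosolic aminoacyl-tRNA synthetases split in both directions. Of 20 tested, 9 rose and 9 fell, and the median of 0.04 turned to -0.07 under library totals. AARS1, for alanine, was at 296 to 356 CPM (median 319) on day 6 and 113 to 121 CPM (median 119.6) on day 7 (log2 fold change -1.45 ± 0.06, SE, edgeR adjusted p = 3.3e-15). SARS1 for serine and CARS1 for cysteine changed by -0.90 and -1.03 (adjusted p = 4.3e-10 and 2.5e-08). FARSB, the beta subunit of the phenylalanine enzyme, was at 40.4 to 51.3 CPM (median 43.6) on day 6 and 75.1 to 91.6 CPM (median 83.2) on day 7 (log2 fold change 0.89 ± 0.09, SE, edgeR adjusted p = 8.4e-09), and VARS1 for valine rose by 1.11 ± 0.12 (SE, adjusted p = 6.8e-08).

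In the cytosol, chaperones rose. Of 35 tested, 21 were called higher and 2 lower, with a median of 0.66. HSPA8, the constitutive Hsp70, was at 933 to 1093 CPM (median 987) on day 6 and 2386 to 2469 CPM (median 2411) on day 7 (log2 fold change 1.28 ± 0.04, SE, edgeR adjusted p = 1.3e-17). HSP90AA1, the inducible Hsp90 of the cytosol, was at 337 to 442 CPM (median 409.8) on day 6 and 1427 to 1509.7 CPM (median 1451) on day 7 (log2 fold change 1.86 ± 0.06, SE, edgeR adjusted p = 1.3e-17), and HSP90AB1, its constitutive partner, was at 802 to 1096 CPM (median 988) on day 6 and 2724 to 2817 CPM (median 2782) on day 7 (log2 fold change 1.51 ± 0.05, SE, edgeR adjusted p = 1.0e-16). For all 3 the lowest value of day 7 was above the highest of day 6, as the naming rule required. Their cofactors DNAJA1 (an Hsp40), HSPH1 (an Hsp110) and AHSA1 (an activator of the Hsp90 ATPase) rose by 1.17, 1.34 and 1.37 (adjusted p = 1.9e-13, 3.2e-13 and 6.9e-13). The 2 that fell were SERPINH1 (-0.91), a collagen chaperone that resides in the ER, and DNAJB2 (-0.39). The stress-inducible HSPA1A and HSPA1B had 0.58 and 0.50 and did not pass the test (adjusted p = 0.497 and 0.148), as did HSF1 with 0.14. HSPA1A and HSPA1B are near-identical copies, so that their counts may be shared, and HSPA8 and HSP90AA1 have processed pseudogenes.

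Chaperones of other compartments and complexes rose as well. Of 14 members of the chaperonin TRiC and its partner prefoldin, 10 rose and 0 fell (median 0.87). CCT5 was at 117 to 139.9 CPM (median 123) on day 6 and 323 to 358 CPM (median 337) on day 7 (log2 fold change 1.44 ± 0.06, SE, edgeR adjusted p = 1.1e-15). CCT7, TCP1, CCT3, CCT6A and CCT2 rose by 1.02, 1.06, 0.89, 1.13 and 1.07. In mitochondria 8 of 13 chaperones and proteases rose and LONP1, a matrix protease, fell by 0.31. HSPE1, the small partner of the mitochondrial chaperonin, had the largest rise of genes with a mean of at least 5 CPM and no overlap, at 5.70 to 8.68 CPM (median 6.38) on day 6 and 24.0 to 30.4 CPM (median 27.5) on day 7 (log2 fold change 2.02 ± 0.14, SE, edgeR adjusted p = 2.1e-11). HSPD1, the large partner, was at 151 to 178 CPM (median 172) on day 6 and 379.7 to 433 CPM (median 399) on day 7 (log2 fold change 1.25 ± 0.06, SE, edgeR adjusted p = 1.7e-14).

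Opposed units of the heat shock element, GAANNTTC, which reads the same on both strands, were found in 14 of 31 chaperone genes with a window (45.2%) and in 6.72% of tested genes with a window. The 14 were HSPA8, HSP90AA1, HSP90AB1, DNAJA1, CHORDC1, DNAJB1, DNAJB6, BAG2, SERPINH1, HSPA1B, HSPA1L, HSPA1A, HSPB1 and DNAJA4. Among them SERPINH1 fell, and HSPA1A and HSPA1B did not pass the test. The windows of HSPA8 at chr11:123062137-123062386 and of HSP90AA1 at chr14:102087045-102087294, both on the minus strand, are shown for the 2 members with the smallest p, with the matches in capitals.
HSPA8: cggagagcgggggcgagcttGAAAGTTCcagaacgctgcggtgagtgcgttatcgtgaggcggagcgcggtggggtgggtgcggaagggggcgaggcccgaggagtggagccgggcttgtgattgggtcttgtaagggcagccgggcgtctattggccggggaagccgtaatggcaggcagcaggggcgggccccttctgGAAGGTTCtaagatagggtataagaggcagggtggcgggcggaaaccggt
HSP90AA1: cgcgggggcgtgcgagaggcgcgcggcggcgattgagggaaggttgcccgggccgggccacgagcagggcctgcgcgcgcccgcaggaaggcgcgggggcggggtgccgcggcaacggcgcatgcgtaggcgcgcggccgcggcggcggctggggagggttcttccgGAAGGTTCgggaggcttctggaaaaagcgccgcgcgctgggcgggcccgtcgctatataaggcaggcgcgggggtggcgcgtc
HSPA8 has 2 matches, 230 and 50 bases before the start. HSP90AA1 has 2 windows in RefSeq, and the one shown holds a match 83 bases before the start.

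Subunits of the proteasome, the protease that degrades ubiquitin-marked proteins, rose almost throughout. Of 36 tested, 34 were called higher and 1 lower (median 0.63). PSMD2, a scaffold of the regulatory particle, was at 254 to 285 CPM (median 273) on day 6 and 464 to 506 CPM (median 476) on day 7 (log2 fold change 0.82 ± 0.05, SE, edgeR adjusted p = 1.0e-12). PSMB2 and PSMA6 of the core particle rose by 0.95 ± 0.06 and 1.05 ± 0.07 (SE, adjusted p = 7.5e-12 and 8.4e-12). The 1 member that fell was NFE2L1 (-0.23), the transcription factor of proteasome genes, which is no subunit. PSMD4 had 0.17 and did not pass the test.

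Genes of cell division rose in nearly all cases. Of 89 genes of G2/M and mitosis, 88 rose and 0 fell, with a median of 1.13. Of 65 genes of G1/S and DNA replication, 61 rose and 0 fell, with a median of 1.05. The number of members whose days did not overlap was 86 and 60, with day 7 above, beside 2212 of all 25957 genes tested. CCNA2, cyclin A2, was at 36.7 to 47.3 CPM (median 41.8) on day 6 and 123 to 149.7 CPM (median 139) on day 7 (log2 fold change 1.71 ± 0.08, SE, edgeR adjusted p = 1.3e-14). MYBL2, the transcription factor B-MYB, was at 63.7 to 86.1 CPM (median 79.1) on day 6 and 244 to 267 CPM (median 248) on day 7 (log2 fold change 1.70 ± 0.07, SE, edgeR adjusted p = 9.0e-16). MKI67, the proliferation antigen Ki-67, was at 305 to 380.0 CPM (median 359) on day 6 and 779 to 859 CPM (median 817) on day 7 (log2 fold change 1.22 ± 0.06, SE, edgeR adjusted p = 1.7e-14), and the mitotic kinesin KIF11 and the anaphase activator CDC20 rose by 1.46 and 1.46. CDC25C, a phosphatase of mitotic entry, had 0.21 and was the only member of its list not called.

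At the G1/S side, UHRF1, which keeps DNA methylation at replication forks, was at 111 to 150.1 CPM (median 120.1) on day 6 and 398 to 447 CPM (median 429.6) on day 7 (log2 fold change 1.78 ± 0.07, SE, edgeR adjusted p = 4.8e-16). Of the replicative helicase, MCM4 was at 94.6 to 131 CPM (median 107) on day 6 and 367 to 406 CPM (median 392) on day 7 (log2 fold change 1.83 ± 0.07, SE, edgeR adjusted p = 1.1e-15). MCM7, MCM2, MCM6 and MCM3 rose by 1.40, 1.49, 1.30 and 1.28, each with an adjusted p of at most 5.7e-14. CCND2 (cyclin D2, -0.58), CDT1 (0.25), CCNE1 (0.54) and PRIM1 (0.35) did not pass the test. RRM2, the regulatory subunit of ribonucleotide reductase, was at 121 to 152 CPM (median 141) on day 6 and 405 to 436 CPM (median 419) on day 7 (log2 fold change 1.60 ± 0.06, SE, edgeR adjusted p = 3.9e-16). It led the 26 genes of nucleotide synthesis, of which 24 rose and 0 fell (median 1.04). The others with the smallest p were RRM1 (1.33), the nucleoside diphosphate kinase NME1 (1.80), and PAICS, MTHFD1 and PFAS of purine and folate metabolism (1.27, 1.30 and 1.40). DHODH and IMPDH2 had 0.29 and 0.10 and did not pass the test.

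Replication-dependent histones, whose mRNAs end in a stem-loop in place of a poly(A) tail, are within reach of libraries primed at random. Of 61 listed, 47 passed the filter on low counts, 23 rose and 0 fell (median 0.79). H1-5 was at 36.7 to 60.9 CPM (median 42.6) on day 6 and 138 to 148 CPM (median 141) on day 7 (log2 fold change 1.65 ± 0.10, SE, edgeR adjusted p = 1.4e-12), and H2BC7 rose by 1.41 ± 0.13 (SE, adjusted p = 6.2e-09). Many histone genes are near-identical copies, so that single members are uncertain. Tubulins, which form the spindle, led the cytoskeletal list, with TUBB at 742 to 969.9 CPM (median 822) on day 6 and 2087 to 2159 CPM (median 2124) on day 7 (log2 fold change 1.33 ± 0.05, SE, edgeR adjusted p = 4.5e-16) and TUBA1B higher by 1.83 (adjusted p = 1.3e-15).

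E2F sites, counted as TTTCCCGC or TTTGGCGC on either strand, were found in 23 of 51 G1/S genes with a window (45.1%) and in 4.13% of tested genes with a window. The cell cycle homology region, TTTGAA on either strand, was found in 51 of 77 genes of G2/M and mitosis (66.2%) and in 14.5% of tested genes. CCAAT boxes, which overlap the ER stress response element by construction, were in 42.1% of tested genes. Their share was 76.6% for the G2/M genes, 58.8% for G1/S, 86.7% for the ER list, 58.6% for the ATF4 list, 35.5% for cytosolic chaperones and 88.9% for cholesterol synthesis and uptake. The windows of MCM6 at chr2:135876444-135876693 on the minus strand and CDC20 at chr1:43358731-43358980 on the plus strand are shown because each holds 2 or more matches. In MCM6 the capitals mark E2F sites, and in CDC20 the homology region and CCAAT boxes.
MCM6: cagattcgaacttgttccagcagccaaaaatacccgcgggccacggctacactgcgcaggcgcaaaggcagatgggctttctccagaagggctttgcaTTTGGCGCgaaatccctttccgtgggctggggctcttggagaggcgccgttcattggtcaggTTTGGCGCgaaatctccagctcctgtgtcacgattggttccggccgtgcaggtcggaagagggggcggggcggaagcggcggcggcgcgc
CDC20: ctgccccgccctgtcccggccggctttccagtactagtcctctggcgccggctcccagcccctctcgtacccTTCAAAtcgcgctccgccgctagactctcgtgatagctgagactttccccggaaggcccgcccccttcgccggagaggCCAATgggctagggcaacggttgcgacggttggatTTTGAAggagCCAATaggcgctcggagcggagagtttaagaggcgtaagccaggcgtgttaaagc
The MCM6 matches start 152 and 90 bases before the start. In CDC20 the homology region stands 178 and 65 bases before the start and CCAAT 100 and 55 bases before it. Matches describe letters and are not measured binding sites.

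**Figure D3:**
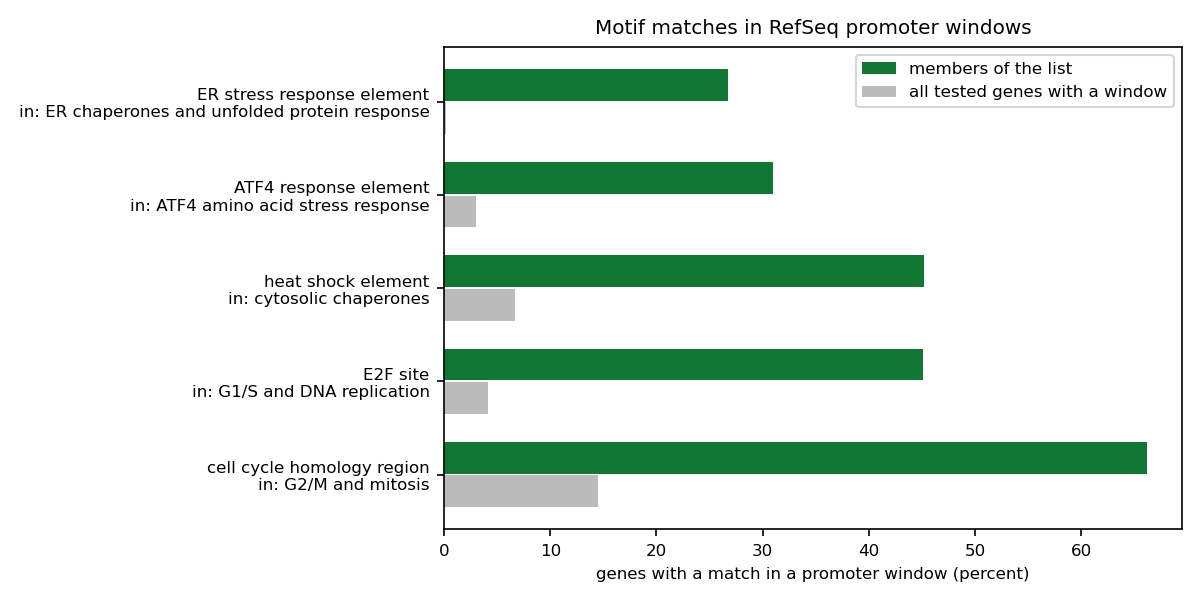
Bars give the percent of genes with a motif match in a RefSeq promoter window, for the members of the list named on the y axis (green) and for all tested genes with a window (grey). The pairs run from 26.7% and 0.132% for the ER stress response element to 66.2% and 14.5% for the cell cycle homology region. Members were counted whichever way they moved, and each motif was chosen for its list.

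The genes that build ribosomes and the genes of the ribosome itself moved in opposite directions. Of 66 genes of ribosome biogenesis, 61 rose and 0 fell (median 0.79). NCL, nucleolin, was at 195 to 236 CPM (median 221) on day 6 and 460.4 to 502 CPM (median 492) on day 7 (log2 fold change 1.16 ± 0.05, SE, edgeR adjusted p = 1.5e-14), and NOP56 and NOLC1, which act with small nucleolar RNAs, rose by 1.13 and 1.25. Of 80 ribosomal protein genes, 42 fell and 2 rose, with a median of -0.18. RPL13A was at 364 to 415 CPM (median 374) on day 6 and 255 to 287 CPM (median 276) on day 7 (log2 fold change -0.48 ± 0.05, SE, edgeR adjusted p = 1.3e-07), and RPL3 at 1148 to 1334 CPM (median 1209) on day 6 and 985 to 1019.8 CPM (median 1007) on day 7 (log2 fold change -0.28 ± 0.04, SE, edgeR adjusted p = 6.8e-06). The 2 that rose were RPS23 (0.32) and RPL35 (0.23). Ribosomal proteins have many processed pseudogenes, so that their counts are uncertain. Under library totals 62 fell and 1 rose.

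MYC, a driver of ribosome synthesis, was at 25.6 to 38.1 CPM (median 33.0) on day 6 and 84.9 to 101 CPM (median 92.4) on day 7 (log2 fold change 1.52 ± 0.09, SE, edgeR adjusted p = 2.1e-12). The polyamine enzymes ODC1, SMS, AMD1 and SRM rose by 1.04, 1.10, 0.94 and 1.53. In their list 7 of 17 rose, and 3 fell, namely MXD4 (-0.51), MXD1 (-0.38) and MYCN (-0.81). Of 43 translation factors 25 rose and 8 fell (median 0.35). EIF4A1, the initiation helicase, was at 404 to 459 CPM (median 445) on day 6 and 858 to 947 CPM (median 919) on day 7 (log2 fold change 1.06 ± 0.05, SE, edgeR adjusted p = 1.1e-14), and EIF5A rose by 1.45 ± 0.08 (SE, adjusted p = 5.0e-13). Among those that fell were the elongation factors EEF2 (-0.55) and EEF1A1 (-0.28). Of 49 spliceosome and SR protein genes 36 rose and SRSF5 fell (-0.28), with a median of 0.53. SF3B3 was at 332 to 397 CPM (median 368) on day 6 and 697 to 733 CPM (median 706) on day 7 (log2 fold change 0.96 ± 0.05, SE, edgeR adjusted p = 1.8e-13). The 23 genes listed as small nucleolar RNA hosts, of which CCDC26 is not one, were split, with 9 higher and 5 lower, such as SNHG3 (1.38) and SNHG32 (-0.93).

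Lipid synthesis rose in part. Of 24 genes of cholesterol synthesis and uptake 13 rose and TM7SF2 fell (-0.72), with a median of 0.59. FDFT1, which makes squalene, was at 186 to 206 CPM (median 199) on day 6 and 309.9 to 344 CPM (median 339.6) on day 7 (log2 fold change 0.77 ± 0.05, SE, edgeR adjusted p = 3.6e-11), with no overlap. HMGCS1, an early enzyme of the pathway, rose by 0.89 ± 0.07 (SE, adjusted p = 1.2e-09). The sterol element TCACNCCAC, on either strand, was found in the window of 1 of 18 members, SREBF2, and in 1.39% of tested genes with a window. Of 14 genes of fatty acid synthesis 8 rose and 0 fell, with FASN at 123 to 201 CPM (median 139.9) on day 6 and 244 to 279 CPM (median 274) on day 7 (log2 fold change 0.85 ± 0.08, SE, edgeR adjusted p = 8.9e-09). Under library totals 1 of 7 genes of cholesterol export was called lower by edgeR, and with TMM factors none was called. The smallest p belonged to MYLIP (-0.32, adjusted p = 0.175) and APOE (-1.74, adjusted p = 0.199), which was at most 1.40 CPM in all samples.

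Nuclear genes of the mitochondrion rose in part. The medians were 0.26 for 22 genes of the tricarboxylic acid cycle (10 higher), 0.30 for 37 subunits of complex I (17 higher, 1 lower) and 0.27 for 21 of complexes III and IV (11 higher). They were 0.36 for 17 of ATP synthase (14 higher), 0.35 for 76 mitochondrial ribosomal proteins (41 higher, 1 lower) and 0.36 for 27 genes of mitochondrial DNA expression (17 higher, 1 lower). Under library totals 11 subunits of complex I and 9 of ATP synthase rose. Citrate synthase, CS, was at 179.7 to 208 CPM (median 193) on day 6 and 284 to 302 CPM (median 293) on day 7 (log2 fold change 0.59 ± 0.06, SE, edgeR adjusted p = 8.3e-09). TFAM, which packages mitochondrial DNA, was at 55.9 to 72.0 CPM (median 61.4) on day 6 and 96.4 to 123 CPM (median 111) on day 7 (log2 fold change 0.82 ± 0.08, SE, edgeR adjusted p = 9.8e-09). The 13 mitochondrially encoded mRNAs did not share a direction, with 4 higher and 3 lower. MT-CO1, a core subunit of complex IV, was at 12649.7 to 15106 CPM (median 14599.7) on day 6 and 9672 to 10147 CPM (median 9725) on day 7 (log2 fold change -0.53 ± 0.03, SE, edgeR adjusted p = 4.4e-12), whereas MT-ND2 of complex I was at 994 to 1377 CPM (median 1164) on day 6 and 1604 to 1755 CPM (median 1708) on day 7 (log2 fold change 0.54 ± 0.05, SE, edgeR adjusted p = 6.1e-09). Under library totals 3 of these mRNAs rose and 7 fell.

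Of 21 glycolytic genes 11 rose and 6 fell (median 0.28). PGK1 was at 464 to 596 CPM (median 509) on day 6 and 805 to 892 CPM (median 824) on day 7 (log2 fold change 0.69 ± 0.05, SE, edgeR adjusted p = 6.2e-11), ENO1 rose by 0.80, and the brain-type aldolase ALDOC was at 45.3 to 75.7 CPM (median 60.4) on day 6 and 19.9 to 25.5 CPM (median 22.8) on day 7 (log2 fold change -1.38 ± 0.11, SE, edgeR adjusted p = 6.5e-10). Of 22 other hypoxia genes 2 rose and 7 fell, led by WSB1 (-0.56) and NDRG1 (-0.92). Antioxidant genes rose in 17 of 31 cases and fell in 2, with the peroxidase PRDX1 at 25.8 to 36.8 CPM (median 33.0) on day 6 and 73.0 to 81.5 CPM (median 79.3) on day 7 (log2 fold change 1.30 ± 0.09, SE, edgeR adjusted p = 3.6e-11) and the thioredoxin reductase TXNRD1 higher by 0.80. TFRC, the transferrin receptor, was at 229 to 338 CPM (median 282) on day 6 and 559.9 to 644 CPM (median 588) on day 7 (log2 fold change 1.07 ± 0.07, SE, edgeR adjusted p = 8.4e-12). Of 47 lysosome and autophagy genes 3 rose (6.38%) and 12 fell (25.5%), beside 21.6% and 14.2% of protein-coding genes. In the fit of 12563 genes with a mean of at least 5 CPM, 2930 were called lower. The median of the list was -0.03, with the acid glucosidase GAA at -0.64 and the protease CTSB at -0.53.

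T-cell genes moved in both directions. Of 50 genes of the T-cell receptor and its signalling 15 rose (30.0%) and 5 fell (10.0%), with a median of 0.11. Among all protein-coding genes 21.6% rose and 14.2% fell, so that this list lay near the background. Under library totals the median was -0.01, with 7 higher and 12 lower. CD3G was at 358 to 434 CPM (median 387) on day 6 and 512 to 580.5 CPM (median 552) on day 7 (log2 fold change 0.50 ± 0.05, SE, edgeR adjusted p = 4.3e-08), and the kinase LCK rose by 0.54 ± 0.06 (SE, adjusted p = 1.9e-07). RAG1, a subunit of the recombinase of receptor genes, was in no list and was at 213 to 286 CPM (median 236) on day 6 and 573 to 706 CPM (median 640.1) on day 7 (log2 fold change 1.38 ± 0.05, SE, edgeR adjusted p = 1.1e-15). Of 30 transcription factors of the T lineage and its leukaemias 14 rose and 2 fell, with TCF7 higher by 0.55 and the oncogene TAL1 lower (-0.33). Chromatin regulators were called higher in 19 of 45 and lower in 6 (median 0.09), led by the DNA methyltransferase DNMT1 at 1.02. Under library totals 14 were higher and 13 lower (median -0.02).

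Immune and stress lists held genes of both directions, beside the background of 13% and 10.4%, or 21.6% and 14.2% for protein-coding genes. NF-kB genes gave 5 higher and 5 lower of 33, led by SOD2 (0.71) and TRAF1 (-1.32), and 3 higher and 9 lower under library totals. Interferon-stimulated genes gave 9 and 7 of 47, with EIF2AK2, the kinase PKR, at 0.87 and STAT2 at -0.69, and under library totals 7 were higher and 12 lower. In the list of MHC class I, HLA-B (-0.60), HLA-C (-0.61) and HLA-E (-0.71) fell while the proteasome activators PSME1 (0.39) and PSME2 (0.56) rose, in all 5 higher and 6 lower of 18, and 3 and 8 under library totals. HLA genes are close paralogs, so that their counts may be shared. Immediate early genes gave 11 higher and 2 lower of 40, and the p53 targets 2 and 4 of 22. The BCL2 family gave 5 and 2 of 17, with the pro-apoptotic BMF at -0.88 and BCL2 at 0.49. Of 30 listed nuclear and non-polyadenylated RNAs 10 were tested, 0 rose and 3 fell, and MALAT1 had -0.55 without passing the test. Iron and metal genes other than TFRC gave no common direction (5 higher and 3 lower of 18, TFRC included, and 3 and 6 under library totals).

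Several genes with large changes were in no list. KPNA2, an importin, was at 142 to 172 CPM (median 164) on day 6 and 437 to 491 CPM (median 466) on day 7 (log2 fold change 1.53 ± 0.06, SE, edgeR adjusted p = 3.6e-16), and the mRNA export helicase DDX39A rose by 1.97 ± 0.08 (SE, adjusted p = 1.5e-15). KANK4 (1.89), the fatty acid carrier FABP5 (1.87), the protease inhibitor SERPINB2 (1.91) and the complement gene C9 (1.83) rose as well. LINC02275 (-2.87), ALS2CL (-2.69), FAM153A (-2.69) and VLDLR-AS1 (-2.59) fell. VLDLR, the sense partner of VLDLR-AS1, fell by 1.33, and whether counting used strand is not given in the sources used here. By gene type in GENCODE release 29, 21.6% of 14020 protein-coding genes rose and 14.2% fell. Of 4836 long non-coding genes 3.35% rose and 8.58% fell, with a median of -0.16. Split into 5 classes of exonic length, protein-coding genes had a median of 0.03 in the shortest class and -0.03 in the longest. In the shortest class 561 of 2804 genes were called higher and 237 lower, and in the longest 584 and 550 of 2804. The part of length in these counts was not tested.

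**Figure D4:**
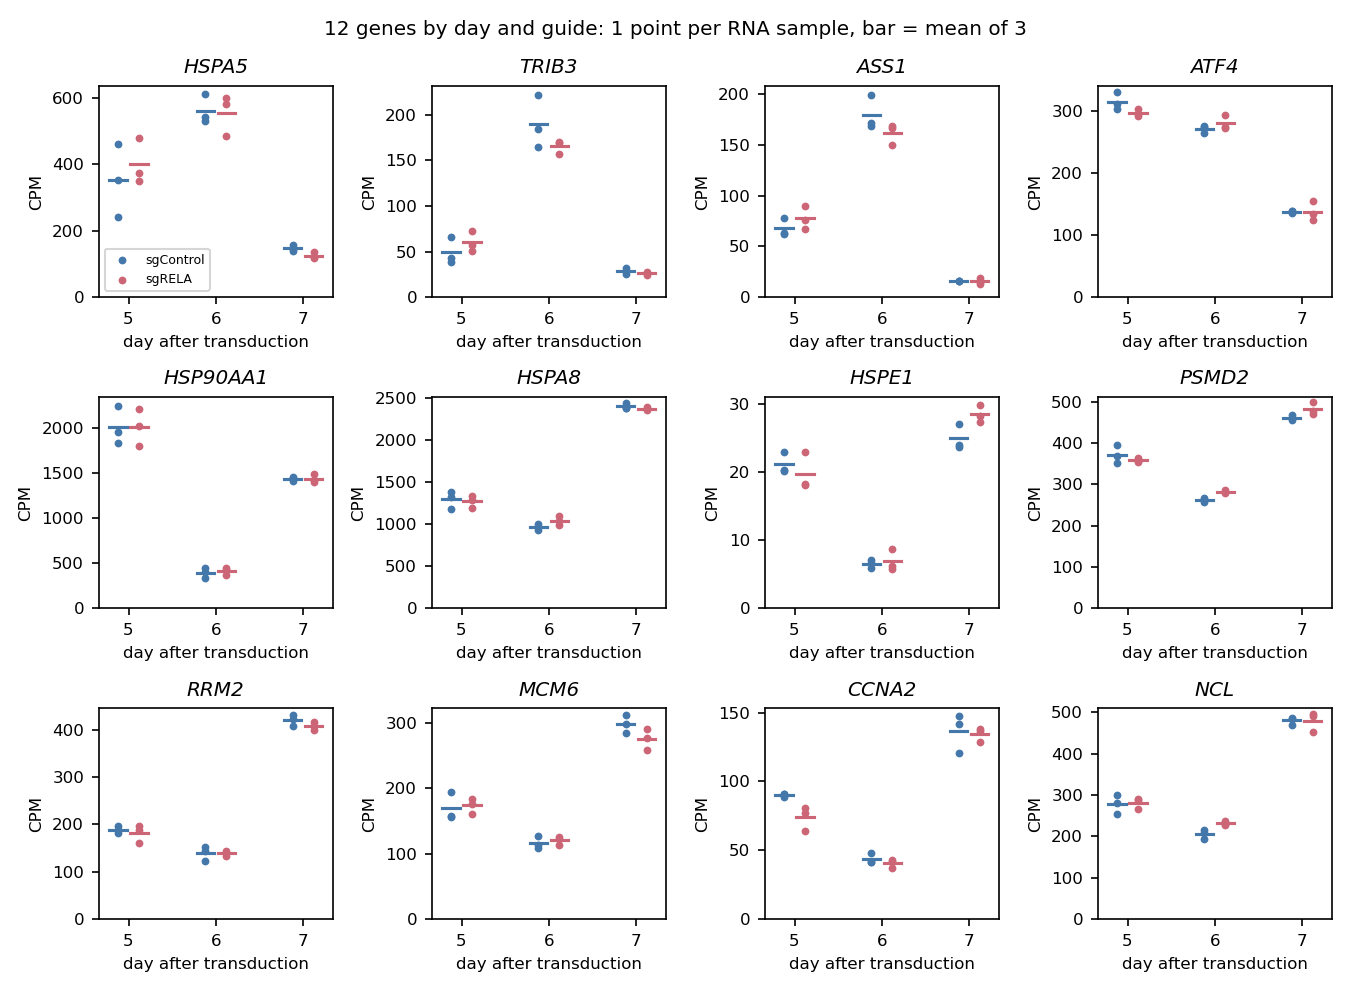
CPM of 12 genes on days 5, 6 and 7 after transduction, with 1 point for each RNA sample, sgControl in blue and sgRELA in red, and bars at the mean of 3. Levels come from the scaling over all 18 RNA samples, and for all 12 genes the points of day 6 and day 7 are apart.

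Levels on day 5 are given beside the others because the order of the days differed between groups of genes. The values that follow are medians of 6 samples on days 5, 6 and 7, scaled over all 18 RNA samples, and no further test was made. Those of days 6 and 7 are the samples compared above. HSP90AA1 was at 1986, 412 and 1434 CPM and HSPE1 at 20.2, 6.41 and 27.2 CPM, so that day 6 was the lowest of the 3 days. HSPA5 was at 362, 563 and 137 CPM, TRIB3 at 54.0, 169.8 and 27.0 CPM and ASS1 at 71.9, 169 and 15.7 CPM, with day 6 the highest. ATF4 was at 302, 273 and 137 CPM and SLC7A11 at 102, 51.7 and 11.5 CPM, with day 7 the lowest. CCNA2 was at 84.9, 41.7 and 137 CPM and RRM2 at 188, 141 and 412 CPM. As the mean log2(CPM + 1) of a list, G2/M and mitosis stood at 5.93, 5.31 and 6.38, and the ER list at 6.34, 6.87 and 5.99. Cytosolic chaperones stood at 5.86, 5.10 and 5.64, and the ATF4 list at 5.64, 5.47 and 4.49.

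The change was also estimated within each guide, from 1 fit of 4 group means over the samples of both guides. Calls within a guide therefore depended in part on samples of the other guide. Without sgControl day 6 replicate 1, 3936 genes were called within sgRELA, beside 3343 with all samples. Without sgRELA day 6 replicate 2, 3723 were called within sgControl, beside 3976. The calls of the 2 guides are thus not independent of each other. Within sgControl 3976 genes were called (15.3%), 2426 higher and 1550 lower, and within sgRELA 3343 (12.9%), 2122 higher and 1221 lower. In both, 2388 genes were called, which is 60.1% of the first and 71.4% of the second, and 2387 of them had the same sign. Of the 6074 genes called over both guides, 6072 had that sign within each guide. The joint change pools the same samples, so that this share was largely set in advance. The medians within sgControl and sgRELA were 1.08 and 1.15 for G2/M and mitosis, -0.80 and -0.94 for the ER list and -0.89 and -0.79 for the ATF4 list.

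**Figure D5:**
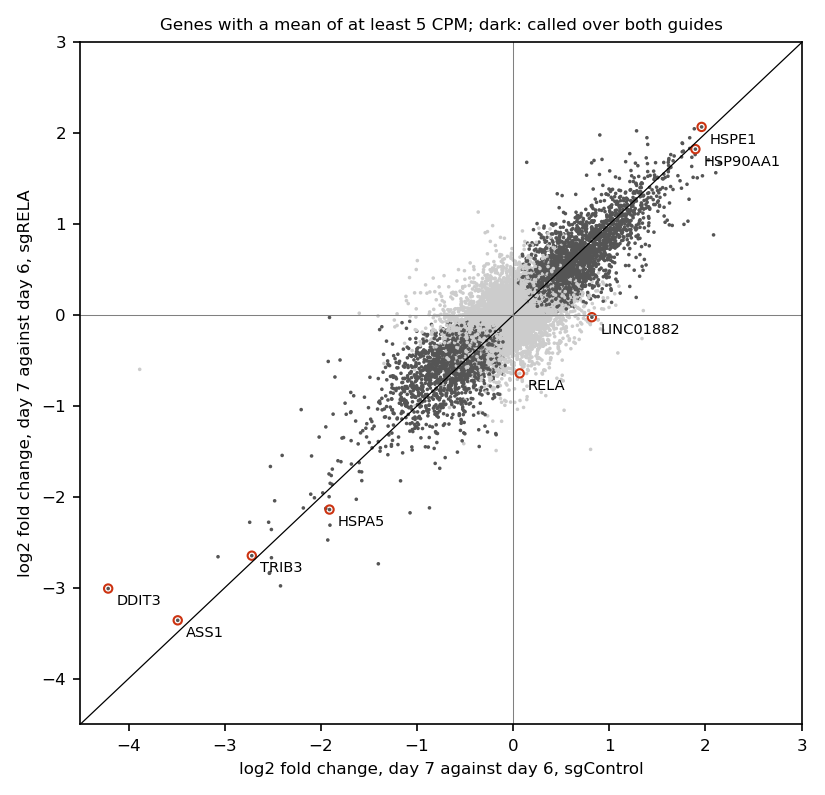
Each point is a gene with a mean of at least 5 CPM, with the log2 fold change of day 7 against day 6 within sgControl on the x axis and within sgRELA on the y axis, and the diagonal marks equal change. Dark points were called over both guides, and the circled LINC01882 and RELA lie to the right of the diagonal.

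The interaction of guide and day was called for 1 gene (0.00385%), with 1263 genes at an unadjusted p under 0.05. That gene was LINC01882, a long non-coding RNA gene at chr18:12739490-12776137 on GRCh38 in GENCODE release 29. In sgControl it was at 61.5, 63.4 and 67.9 CPM on day 6 and at 113, 114 and 112 CPM on day 7. In sgRELA it was at 207, 231 and 224 CPM on day 6 and at 204, 230 and 218 CPM on day 7. It rose by 0.82 ± 0.09 (SE, adjusted p = 2.2e-07) within sgControl, and had -0.02 ± 0.09 within sgRELA (adjusted p = 0.928). The difference was -0.84 ± 0.12 (SE, adjusted p = 0.0114). It was no longer called with either set of libraries alone, without any one of the 3 sgControl samples of day 7, without sgRELA day 6 replicate 2 or without sgRELA day 7 replicate 1, where its value lay between -0.73 and -0.91.

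RELA was at 31.2, 20.1 and 20.6 CPM in sgControl on day 6 and at 26.9, 25.6 and 22.7 CPM on day 7. In sgRELA it was at 223, 186 and 193 CPM on day 6 and at 127, 137 and 122 CPM on day 7. All sgRELA samples were above all sgControl samples. Within sgRELA it fell by 0.64 ± 0.13 on the log2 scale (SE, adjusted p = 0.00136), with no overlap between the days. Within sgControl it had 0.07 ± 0.14 (adjusted p = 0.831), and the edgeR interaction was not called (-0.71 ± 0.19, SE, adjusted p = 0.809). Over both guides it had -0.31 ± 0.12 (adjusted p = 0.064), and it was called lower with DESeq2, with library totals, with either other filter on low counts, with the day 5 samples in the fit, and without sgControl day 6 replicate 2 or 3 or sgControl day 7 replicate 1 or 2.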

How the data were processed

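The authors deposited counts per gene for 36 libraries, whole numbers that had not been normalized. The submitters' processing notes list GRCh38, cutadapt 1.18 and STAR 2.7.9a, and the counting tool, annotation, strand setting and treatment of reads with several matches are not given in the sources used here. The table held 74628 gene identifiers, 21606 of them with no count and 40276 with a symbol. Counts of the 2 libraries of an RNA were added, and 25957 genes passed filterByExpr (minimum count of 10). With guide and day as terms, edgeR 4.0.16 (R 4.3.3) gave TMM factors and quasi-likelihood tests, and p-values were adjusted by Benjamini-Hochberg over all genes tested. Values within each guide and the interaction came from 1 fit of 4 group means. Calls needed an adjusted p under 0.05, and standard errors were derived from the F statistic. CPM are counts relative to the library total times its TMM factor. Single measures were compared by an exact permutation test over 6 and 6 samples (924 arrangements). P-values measure the spread between transductions in triplicate, which share 1 cell line. The procedure was tested on simulated data. The labels mention no molecular identifiers, so that counting error is a lower limit.

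The comparison and the gene lists were chosen with earlier results of these data known. Genes were named by rule. These were RELA, the 12 genes per direction with the smallest p among called genes with the same sign in both guides and no overlap, and the 8 per direction with the largest change and a mean of at least 5 CPM. Up to 6 called members of each list with the smallest p were added, or the 2 with the smallest p, and up to 5 genes of the interaction. Other genes were chosen after their values were seen. The interaction genes by rule were LINC01882, CCDC71L, RCAN3, WWP1 and DSP. Alternatives were DESeq2 1.42.0, its size factors, library totals, other filters on low counts, each set of libraries alone, the day 5 samples in the fit, a replicate block, and leaving out mitochondrial genes, 1 library or each RNA sample. A few genes of the lists are not reported here by name.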

Additional observations from a re-analysis of the deposited data

Results flagged for a closer look

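A value was listed here where the highest or lowest of 6 stood apart from the other 5 by more than the 95% limit of Dixon's test. Of 98 such groups, 12 did so. Chance gives about 5% where values and groups are independent, which does not hold here. A group of libraries holds 2 libraries of each RNA, and a group for a list holds both guides. The lists also share samples and some genes, so that the number of flags cannot be set against that rate. Library 1 of sgControl day 6 replicate 1 had 26526 detected genes where the 5 others of its group had 28174 to 28609, and 7.10% mitochondrial counts beside 9.0% to 9.36%. Library 1 of sgRELA day 6 replicate 1 had 7.91% beside 9.28% to 10.0%.

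The other values are means of log2(CPM + 1) over a list. In sgControl day 6 replicate 1, chaperonin and prefoldin genes stood at 5.68 beside 5.84 to 5.91 on that day, tRNA synthetases at 6.97 beside 7.05 to 7.07, and lysosome and autophagy genes at 5.89 beside 5.77 to 5.81. In sgControl day 6 replicate 2, G2/M and mitosis stood at 5.42 beside 5.25 to 5.31 and the BCL2 family at 3.57 beside 3.71 to 3.77. In sgControl day 6 replicate 3 the antioxidant list stood at 5.3 beside 5.42 to 5.49. On day 7, sgRELA replicate 3 had mitochondrial ribosomal proteins at 4.68 beside 4.74 to 4.78 and nuclear RNAs at 5.33 beside 5.11 to 5.17, and sgControl replicate 1 had T-cell receptor genes at 6.36 beside 6.41 to 6.43. The change of LINC01882 from day 6 to day 7 differed between guides in the interaction test, with -0.84 as sgRELA minus sgControl (edgeR adjusted p = 0.0114).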

How the results depend on the processing

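The 6074 calls over both guides stayed between 5500 and 6132 when each RNA sample was left out in turn, and went to 6845 with DESeq2 (3495 higher, 3350 lower) and 6616 with library totals (2482 higher, 4134 lower). The first libraries alone gave 2977 calls, 1746 within sgControl and 913 within sgRELA. The second libraries alone gave 4334 calls, 2604 within sgControl and 2355 within sgRELA. With both there were 6074, 3976 and 3343. Leaving out samples gave 3148 to 3851 calls within sgControl and 2533 to 3936 within sgRELA. The interaction, with 1 call, had 5 with DESeq2, 11 with no filter on low counts, 0 in edgeR with the first or second libraries alone, 2 with the second library alone for the RNA with few detected genes, and 0 to 3 without 1 sample. With the replicate block there were 5915, 3730, 3213 and 1 calls. Same-numbered samples did not deviate together (correlations from -0.141 to 0.0284 over 4932 genes), so that the numbers were not taken as pairs.

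Medians of 8 lists near 0 changed sign in at least 1 alternative. The tRNA synthetases went to -0.068 with library totals, -0.007 at 5 CPM or more, -0.143 with the second libraries and -0.013 with the second library alone for 1 RNA. T-cell receptor genes went to -0.005 and chromatin regulators to -0.023 with library totals, and the BCL2 family to 0.041 at 5 CPM or more. Over the alternatives, immediate early genes ran from -0.07 to 0.20, mitochondrially encoded mRNAs from -0.14 to 0.12, iron genes from -0.15 to 0.10 and interferon-stimulated genes from -0.14 to 0.04. Of 263 named genes called, 232 kept the call with the first libraries and 248 with the second, and none changed sign in any alternative. The cause of these losses was not tested. Counts of called members moved by more than 1.5 times in many lists, most of them with the first libraries alone. Higher calls ran from 6 to 23 for complex I, 4 to 13 for complexes III and IV, 6 to 14 for ATP synthase, 6 to 13 for the tricarboxylic acid cycle and 20 to 42 for mitochondrial ribosomal proteins. They ran from 9 to 18 for antioxidant genes, 4 to 9 for tRNA synthetases, 15 to 24 for histones, 11 to 21 for the cytoskeleton, 5 to 14 for T-lineage factors, 6 to 16 for T-cell receptor genes and 3 to 12 for immediate early genes. Lower calls ran from 20 to 62 for ribosomal proteins, 4 to 16 for lysosome and autophagy genes, 3 to 7 for hypoxia genes, 3 to 12 for interferon-stimulated genes, 1 to 9 for NF-kB genes and 2 to 13 for chromatin regulators. The ER list had 0 genes higher and 25 to 27 lower, and the list of G2/M and mitosis 86 to 88 higher, in all 23 alternatives.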

Other observations

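The following genes were outside all lists and were picked from the leading genes after their values were seen, so that they stand as single genes and not as groups. The importin KPNB1, the GTPase RAN, its exchange factor RCC1 and the exportin of importins CSE1L rose by 0.90, 1.19, 1.48 and 1.38 (log2, edgeR adjusted p = 3.2e-13, 1.1e-14, 2.1e-14 and 2.2e-13). The kinase PRKDC and its partner XRCC5 rose by 1.04 and 0.99 (adjusted p = 4.5e-15 and 2.1e-13). PCK2 and GPT2, mitochondrial enzymes of phosphoenolpyruvate and alanine metabolism, had -1.53 and -1.39 (adjusted p = 1.0e-09 and 2.5e-09). PPIB and SSR2, an isomerase and a translocon subunit of the ER, had -1.17 and -0.76 (adjusted p = 5.4e-08 and 6.0e-09).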
